A study of Mus musculus with 11 samples.

Results

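The TAM receptor system is described here through 5 genes, the ligands Gas6 and Pros1 and the receptors Axl, Tyro3 and Mertk, which are 5 of the 14272 genes with a deposited value. All 5 of the 5 listed genes had a value in each of the 11 libraries. Pros1 was chosen by its own values in 4C and 4C11-, between which it was lost, so its levels in these lines are a description without a test. It was tested in 4C11+ against melan-a alone, the comparison that holds neither of these lines, although a fit over all libraries takes part of its spread from them. Gas6 is the other vitamin K-dependent ligand, and Axl, Tyro3 and Mertk make up the receptor family.

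TAM receptors are receptor tyrosine kinases whose ligands, Gas6 and protein S (the product of Pros1), bind phosphatidylserine on dying cells or shed membrane with a vitamin K-dependent domain and bridge it to the receptor. Gas6 binds every receptor of the family, whereas protein S acts on Tyro3 and Mertk. In human melanoma, high AXL together with low MITF is known as a mark of a dedifferentiated, mesenchymal-like state.

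Total RNA of 4 mouse cell lines was sequenced in stranded libraries after depletion of ribosomal RNA. Melan-a is a nonmalignant melanocyte line of epithelial phenotype (2 libraries, replicates 2 and 3), and its medium held 200 nM PMA, a phorbol ester. Repeated cycles of blocked anchorage of melan-a gave 4C, which is premalignant and mesenchymal-like, 4C11-, a mesenchymal-like melanoma line that does not metastasize, and 4C11+, an epithelial and metastatic line (3 libraries each, no PMA). PMA and the line cannot be told apart in any comparison with melan-a.

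The deposited values are log2 CPM (read counts scaled to library size), which the authors made with voom, and no library total is given. Their low values lie on steps of single reads, and read numbers were estimated from the order of these steps. All libraries share a highest value, as after quantile normalization, so the values need not be plain CPM. Depths were estimated from the step at 40 reads as if they were, and are a rough guide only. The depth was approximately 3.50 and 5.82 M reads for melan-a, 6.51, 7.08 and 5.67 M for 4C, 4.58, 7.42 and 6.69 M for 4C11- and 4.19, 4.07 and 5.47 M for 4C11+. By their methods, the authors kept genes that reached 1 CPM in at least 4 libraries. A gene with RNA in 1 line alone could thus have no value, so a missing value does not show absence. A gene is called at 0 reads where it had none in any library of a line. For members with at most 3 reads in each library of a line, bounds were set at the value of 3 reads, and they cover counting error only. In RNA from a whole culture, fewer cells that express a gene and less RNA per cell cannot be told apart.

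Libraries of melan-a and of 4C11- differed more from each other than those of 4C and 4C11+. Across genes, melan-a replicates 2 and 3 had a Pearson correlation of 0.907, and 4C11- replicate 1 had 0.924 and 0.888 with the other libraries of its line, which had 0.971 with each other. The lowest value in 4C was 0.948 and that in 4C11+ was 0.955. In melan-a replicate 2, all 3 receptors were higher than in replicate 3. Results of the members that rest on 1 of the melan-a libraries or on 4C11- replicate 1 are given with and without it.

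Gas6 encodes the ligand with the widest receptor range (ENSMUSG00000031451, GRCm38 chr8:13465374-13494490, minus strand). Its log2 CPM was 6.59 and 6.06 for melan-a, 8.65, 8.17 and 8.22 for 4C, 8.37, 8.37 and 8.30 for 4C11- and -2.44, -0.70 and -1.16 for 4C11+. The 6 mesenchymal-like libraries were all above both melan-a libraries, and 4C11+ lay far below every other library without overlap. Its 3 libraries held 0, 1 and 1 reads of Gas6.

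Pros1 encodes protein S (ENSMUSG00000022912, GRCm38 chr16:62854307-62929346, plus strand). Its log2 CPM was 5.17 and 4.24 for melan-a, 4.70, 5.43 and 5.51 for 4C, -3.15, -3.44 and -3.44 for 4C11- and 5.84, 5.92 and 6.40 for 4C11+. Every 4C11- library was at 0 reads, the libraries of melan-a and 4C overlapped, and 4C11+ was above all others. Pros1 for 4C11- was at least 110-fold lower than for 4C, at least 198-fold lower than for 4C11+ and at least 77.3-fold lower than for melan-a. The ligands were thus lost in different lines, Pros1 in 4C11- and Gas6 in 4C11+.

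**Figure D1:**
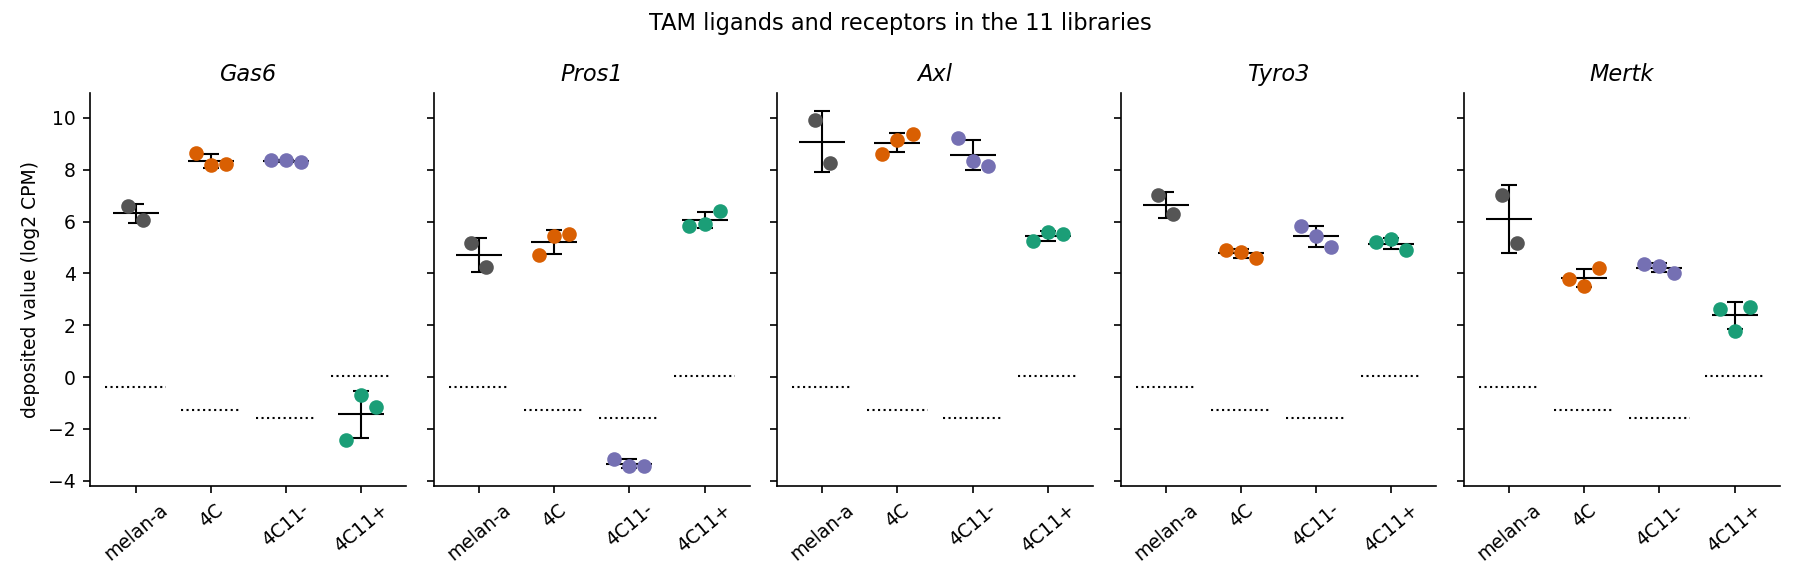
Deposited value (log2 CPM) of the ligands Gas6 and Pros1 and the receptors Axl, Tyro3 and Mertk in each of the 11 libraries (points), by line, with the line mean and SD as bar and error bar. Gas6 reaches at most -0.70 in 4C11+ and Pros1 at most -3.15 in 4C11-.

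The promoters are shown for Pros1 and Gas6, each lost in 1 line, and for Axl, the most abundant receptor. They are the 250 bases before the RefSeq start (GRCm38.p6), read along the strand of the gene, at chr16:62854057-62854306 (plus strand) for Pros1, chr8:13494536-13494785 (minus strand) for Gas6 and chr7:25788734-25788983 (minus strand) for Axl. Capitals mark the GC box GGGCGG and the TEAD motif CATTCC on either strand, and matches may overlap.
Pros1: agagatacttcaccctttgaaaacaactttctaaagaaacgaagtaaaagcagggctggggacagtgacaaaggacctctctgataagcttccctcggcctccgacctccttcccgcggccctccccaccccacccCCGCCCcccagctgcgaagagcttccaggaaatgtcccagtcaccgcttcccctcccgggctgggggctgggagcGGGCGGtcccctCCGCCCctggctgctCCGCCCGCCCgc
Gas6: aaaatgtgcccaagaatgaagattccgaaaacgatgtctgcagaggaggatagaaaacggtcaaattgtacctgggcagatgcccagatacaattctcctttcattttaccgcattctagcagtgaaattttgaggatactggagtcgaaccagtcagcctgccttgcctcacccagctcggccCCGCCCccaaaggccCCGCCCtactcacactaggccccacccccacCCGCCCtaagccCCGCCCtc
Axl: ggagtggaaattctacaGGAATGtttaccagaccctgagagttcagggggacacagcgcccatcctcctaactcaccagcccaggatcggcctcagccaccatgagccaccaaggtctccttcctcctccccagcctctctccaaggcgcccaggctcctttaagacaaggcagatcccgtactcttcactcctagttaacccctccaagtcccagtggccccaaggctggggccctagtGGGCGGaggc
The GC box was found in 5 of the 5 promoters of the system and in 32.7% of 32851 RefSeq promoters of this length. CATTCC was found in the Axl promoter alone, against 12.6% of all promoters. The AP-1 motif TGANTCA (6.75% of promoters) and the E-boxes CATGTG (12.3%) and CACGTG (6.02%) were in 0 of 5. Pros1 had 15 CG dinucleotides in this window, Gas6 10 and Axl 5, with 24 in Tyro3 and 7 in Mertk, beside a median of 6 (quartiles 2 and 16) over all promoters. The motifs were chosen with the data known, and a match of letters describes the sequence and no more.

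Axl encodes the receptor that Gas6 binds most tightly (ENSMUSG00000002602, GRCm38 chr7:25757273-25788705, minus strand). Its log2 CPM was 9.91 and 8.26 for melan-a, 8.62, 9.16 and 9.36 for 4C, 9.23, 8.32 and 8.16 for 4C11- and 5.24, 5.59 and 5.52 for 4C11+. The libraries of the first 3 lines overlapped, and 4C11+ was below all of them. The highest melan-a value was that of replicate 2 and the highest 4C11- value that of replicate 1, which stood apart in its line.

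Tyro3 encodes a receptor that protein S activates (ENSMUSG00000027298, GRCm38 chr2:119797733-119818104, plus strand). Its log2 CPM was 7.01 and 6.28 for melan-a, 4.89, 4.84 and 4.59 for 4C, 5.83, 5.45 and 5.03 for 4C11- and 5.22, 5.33 and 4.91 for 4C11+. Melan-a was above every other library, 4C was the lowest line without overlap with any other, and 4C11- and 4C11+ overlapped.

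Mertk encodes the receptor best known for the uptake of dying cells (ENSMUSG00000014361, GRCm38 chr2:128698956-128802894, plus strand). Its log2 CPM was 7.02 and 5.17 for melan-a, 3.78, 3.50 and 4.19 for 4C, 4.35, 4.29 and 4.03 for 4C11- and 2.64, 1.78 and 2.71 for 4C11+, the last from approximately 25, 13 and 35 reads. Melan-a was highest and 4C11+ lowest, each without overlap, and 4C and 4C11- overlapped. The gene overlaps the antisense gene Gm14011 and the small nucleolar RNA Gm23172, and Gas6 overlaps Tmem255b. None of these 3 had a deposited value.

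By line mean (log2 CPM ± SD, n = 2 for melan-a and 3 elsewhere), Gas6 ran from 8.35 ± 0.27 for 4C and 8.35 ± 0.04 for 4C11- to 6.32 ± 0.38 for melan-a and -1.43 ± 0.90 for 4C11+. Pros1 was highest in 4C11+ (6.06 ± 0.30), followed by 4C (5.21 ± 0.45), melan-a (4.70 ± 0.66) and 4C11- (-3.34 ± 0.17). Libraries of neighbouring lines overlapped in Gas6 for 4C and 4C11- and in Pros1 for 4C and melan-a. Axl was 9.09 ± 1.17 for melan-a, 9.05 ± 0.38 for 4C, 8.57 ± 0.58 for 4C11- and 5.45 ± 0.18 for 4C11+. Tyro3 was 6.65 ± 0.52 for melan-a, 5.44 ± 0.40 for 4C11-, 5.15 ± 0.22 for 4C11+ and 4.77 ± 0.16 for 4C. Mertk was 6.09 ± 1.31 for melan-a, 4.22 ± 0.17 for 4C11-, 3.82 ± 0.35 for 4C and 2.38 ± 0.52 for 4C11+. Neighbours in these orders with overlapping libraries were melan-a, 4C and 4C11- for Axl, 4C11- and 4C11+ for Tyro3 and 4C11- and 4C for Mertk.

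The first comparison, 4C against melan-a, asks what differed between the nonmalignant and the premalignant line. Tyro3 and Mertk fell, Gas6 rose, and Axl did not pass the test. Tyro3 was lower by 3.66-fold in 4C (log2 difference -1.87, SE 0.31, limma adjusted p = 0.00163), with all 3 4C libraries below both of melan-a. Mertk was lower by 4.82-fold (log2 difference -2.27, SE 0.50, limma adjusted p = 0.00953), again in 3 of 3 libraries. Gas6 was higher (log2 difference 2.03, SE 0.43, limma adjusted p = 0.0075) in 3 of 3.

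Each adjusted p is from limma over all 11 libraries with Benjamini-Hochberg adjustment over 14272 genes, and a gene is called under 0.05. Of the 4 members tested, 1 was called higher and 2 lower in 4C, beside 15.2% of all genes called in either direction, 7.64% higher and 7.55% lower. The call of Mertk was lost without melan-a replicate 2 (log2 difference -1.34, limma adjusted p = 0.0908), with a range of 0.00108 to 0.0908 over the 16 alternatives. That of Gas6 was lost without melan-a replicate 3 (log2 difference 1.76, limma adjusted p = 0.0593), with a range of 0.000733 to 0.0593. The difference of Axl was -0.04 (SE 0.45, limma adjusted p = 0.974) and changed sign without melan-a replicate 2 (0.79) or 4C replicate 1 (0.18), with adjusted p from 0.214 to 0.977 over the alternatives. The untested Pros1 means of 4C and melan-a differed by 0.51 on the log2 scale.

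In 4C11- against 4C, the step to a tumorigenic line in which Pros1 was at 0 reads, no receptor passed the test. The log2 differences were 0.67 for Tyro3 (SE 0.28, limma adjusted p = 0.318), 0.40 for Mertk (SE 0.45, limma adjusted p = 0.748) and -0.48 for Axl (SE 0.40, limma adjusted p = 0.667). All 3 Tyro3 values of 4C11- were above those of 4C, while the libraries overlapped for Mertk and Axl. Gas6 differed by 0.00 (SE 0.39), and its sign changed without 4C replicate 1 (0.15) or 4C11- replicate 3 (0.02). Thus 0 of 4 members tested were called by limma in this comparison, beside 1.67% of all genes in either direction, 1.26% higher and 0.406% lower. At an unadjusted p under 0.05, 1 of the 4 passed, Tyro3. No share of all genes at that threshold is given here, so this is not read as a result. A p above the threshold does not show that the levels were equal.

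From 4C11- to 4C11+, the step from the mesenchymal-like to the metastatic epithelial line, Axl, Mertk and Gas6 fell, and Tyro3 did not pass the test. Axl was lower by 8.72-fold in 4C11+ (log2 difference -3.12, SE 0.40, limma adjusted p = 0.000131) and Mertk by 3.59-fold (log2 difference -1.84, SE 0.45, limma adjusted p = 0.00878), each in 3 of 3 libraries without overlap. Gas6 fell (log2 difference -9.78, SE 0.385, limma adjusted p = 1.89e-08), a size that rests on 2 reads, and with 4C11+ set at 3 reads per library it was at least 320-fold lower. The log2 difference of Tyro3 was -0.29 (SE 0.28, limma adjusted p = 0.473). Of the 4 members tested, 0 were called higher and 3 lower, beside 31.1% of all genes called in either direction, 15.6% higher and 15.4% lower. Pros1 was present in 4C11+ again, at a mean log2 CPM of 6.06.

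**Figure D2:**
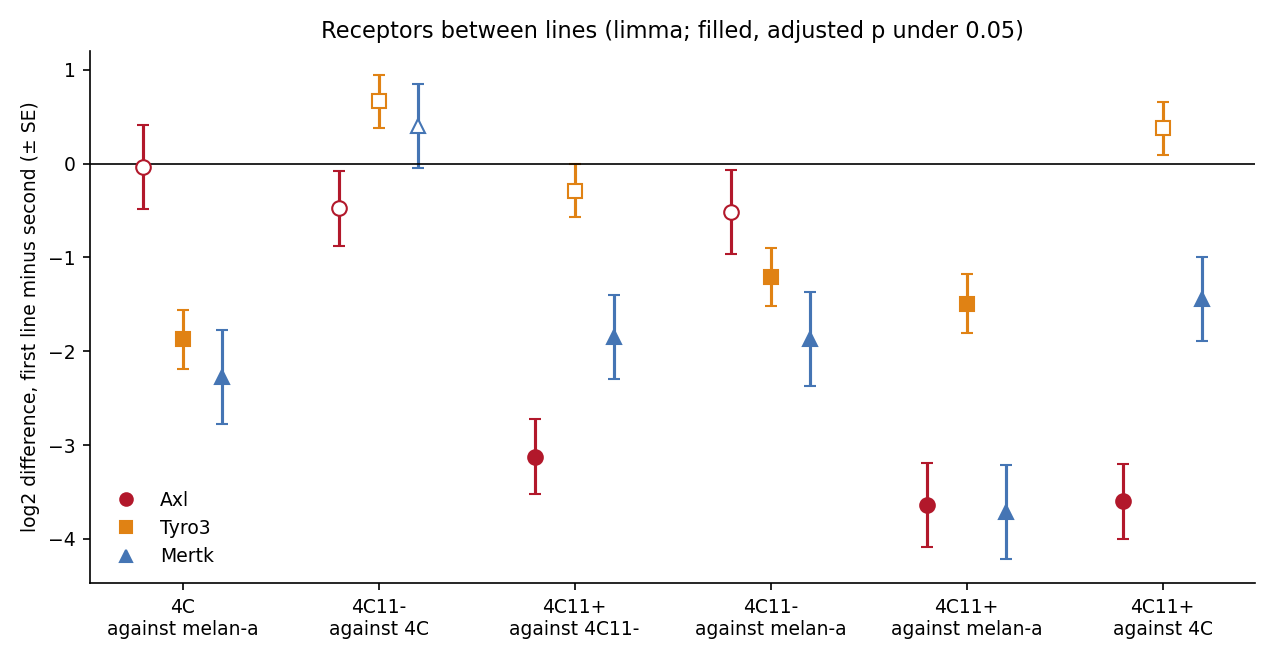
Log2 difference of Axl, Tyro3 and Mertk (points, first line minus second, ± SE) in the comparisons between lines, filled where the limma adjusted p was under 0.05. Axl lies at -3.12 in 4C11+ against 4C11- and at -0.04 in 4C against melan-a.

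Against 4C, the line 4C11+ also had less Axl, Mertk and Gas6. The log2 difference was -3.60 for Axl (SE 0.40, limma adjusted p = 4.07e-05) and -1.44 for Mertk (SE 0.45, limma adjusted p = 0.0292), each in 3 of 3 libraries without overlap. Gas6 fell (log2 difference -9.78, SE 0.385, limma adjusted p = 1.89e-08), and was at least 320-fold lower by the same bound. Tyro3 did not pass (log2 difference 0.38, SE 0.28, limma adjusted p = 0.333), although every 4C11+ library was above every 4C library. Of the 4 members tested, 0 were called higher and 3 lower, beside 31.7% of all genes in either direction, 17.1% higher and 14.6% lower. The call of Mertk was lost without 4C replicate 1 (limma adjusted p = 0.0579), 4C replicate 3 (0.108), 4C11+ replicate 1 (0.0541) or 4C11+ replicate 2 (0.123), with a range of 0.00594 to 0.123 over the alternatives.

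Compared with melan-a, the other line of epithelial phenotype, 4C11+ had less of all 3 receptors and of Gas6. The log2 difference was -3.64 for Axl (SE 0.45, limma adjusted p = 0.000305), -3.71 for Mertk (SE 0.50, limma adjusted p = 0.000574) and -1.50 for Tyro3 (SE 0.31, limma adjusted p = 0.00883). Axl ran from -4.46 without melan-a replicate 3 to -2.81 without replicate 2, and Mertk from -4.64 to -2.79. Gas6 fell (log2 difference -7.75, SE 0.43, limma adjusted p = 6.15e-07), and was at least 78.7-fold lower by the bound at 3 reads. The Pros1 mean was higher by 2.55-fold (log2 difference 1.35). In each of these 5 genes the 3 libraries of 4C11+ lay on 1 side of both melan-a libraries. Of the 4 members other than Pros1, 0 were called higher and 4 lower, beside 15.9% of all genes in either direction, 8.39% higher and 7.52% lower.

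Fitted on the libraries of melan-a and 4C11+ alone, which hold none of the values that chose it, Pros1 did not pass (limma adjusted p = 0.0617). The fit over all libraries gave a limma adjusted p of 0.0436 (SE 0.41), but its spread draws on the 4C and 4C11- values too, so no rise of Pros1 is called here. Over the 16 alternatives the adjusted p ran from 0.0302 to 0.225, the highest without melan-a replicate 3, and was under the threshold in 7, with a log2 difference of 0.89 to 1.82. The call of Tyro3 was lost without melan-a replicate 2 (log2 difference -1.13, limma adjusted p = 0.0872), with a range of 0.00374 to 0.0872. Axl, Mertk and Gas6 passed under all 16 alternatives.

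In 4C11- against melan-a, the tumorigenic mesenchymal-like line had less Tyro3 and Mertk and more Gas6. The log2 difference was -1.21 for Tyro3 (SE 0.31, limma adjusted p = 0.0242), -1.87 for Mertk (SE 0.50, limma adjusted p = 0.0281) and 2.03 for Gas6 (SE 0.43, limma adjusted p = 0.00798), each in 3 of 3 libraries without overlap. Axl did not pass (-0.51, SE 0.45, limma adjusted p = 0.529), and its sign changed without melan-a replicate 2 (0.31), with adjusted p from 0.0633 to 0.733 over the alternatives. Of the 4 members tested, 1 was called higher and 2 lower, beside 13.6% of all genes in either direction, 7.55% higher and 6.05% lower. The calls of both receptors were lost with the libraries of the compared lines alone (limma adjusted p = 0.153 for Tyro3 and 0.132 for Mertk) and without melan-a replicate 2 (log2 difference -0.84, limma adjusted p = 0.186, and -0.94, 0.254). They were also lost without 4C11- replicate 2 (0.0696 for Tyro3 and 0.0707 for Mertk) or replicate 3 (0.0712 and 0.0704). The ranges over the alternatives were 0.00808 to 0.186 for Tyro3 and 0.00275 to 0.254 for Mertk. The call of Gas6 was lost without melan-a replicate 3 (log2 difference 1.76, limma adjusted p = 0.063, range 0.000796 to 0.063).

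Joined by phenotype, the mean of the mesenchymal-like lines 4C and 4C11- was above that of the epithelial lines melan-a and 4C11+ for Axl and Gas6 and below it for Tyro3. The lines did not split this way for Axl, since 4C11+ alone was low and melan-a (9.09) had the highest mean, or for Tyro3, where 4C11+ (5.15) lay below 4C11- (5.44). The log2 difference was 1.54 for Axl (SE 0.30, limma adjusted p = 0.0023) and -0.79 for Tyro3 (SE 0.21, limma adjusted p = 0.0142), although libraries of the groups overlapped for both. Gas6 was higher in 6 of 6 mesenchymal-like libraries (limma adjusted p = 3.98e-08), but the epithelial lines themselves differed in Gas6 as given above. The spread in these tests is that between libraries of a line. The p-values therefore do not measure how lines of 1 phenotype differ, and the libraries are not replicates of a phenotype. Mertk did not pass (log2 difference -0.21, SE 0.34, limma adjusted p = 0.68), and its sign changed without melan-a replicate 2 (0.25), with adjusted p from 0.107 to 0.841. Of the 4 members tested, 2 were called higher and 1 lower, beside 29.7% of all genes in either direction, 14.3% higher and 15.3% lower. The call of Tyro3 was lost without melan-a replicate 2 (log2 difference -0.61, limma adjusted p = 0.063, range 0.00425 to 0.063).

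Levels of different genes were compared after division by the merged exon length, which was 5033 bases for Axl, 6198 for Tyro3, 4336 for Mertk, 2548 for Gas6 and 4088 for Pros1. Axl made up most of the receptor RNA in every library, and the mixture of receptors differed between the lines. Its share of the receptor CPM per kilobase was 79.1 and 74.5% for melan-a, 90.8, 94.0 and 94.2% for 4C, 89.6, 84.6 and 86.3% for 4C11- and 50.3, 56.8 and 58.9% for 4C11+. The 4C11+ libraries were lowest and those of 4C highest, without overlap between any of the 4 lines. Tyro3 held 36.6% ± 4.69 of the receptor RNA for 4C11+ (SD, n = 3), against 11.9% ± 4.75 for melan-a (n = 2), 8.09% ± 1.25 for 4C11- and 4.05% ± 1.40 for 4C (n = 3 each). Mertk held 11.2% ± 1.56 for melan-a, 8.03% ± 2.87 for 4C11+, 5.08% ± 1.36 for 4C11- and 2.95% ± 0.758 for 4C. The sum of the 3 receptors was 242 and 81.7 CPM per kilobase for melan-a, 86.4 to 139 for 4C, 66.0 to 133 for 4C11- and 14.9 to 16.8 for 4C11+. These sums overlapped between the first 3 lines and not with 4C11+. Per coding length, an alternative chosen after the data were seen, Axl was still the most abundant receptor in every library, but in 4C11+ it held 46.8, 52.4 and 55.9% against 46.4, 44.2 and 36.9% for Tyro3, so it was not most of the receptor RNA in replicate 1.

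**Figure D3:**
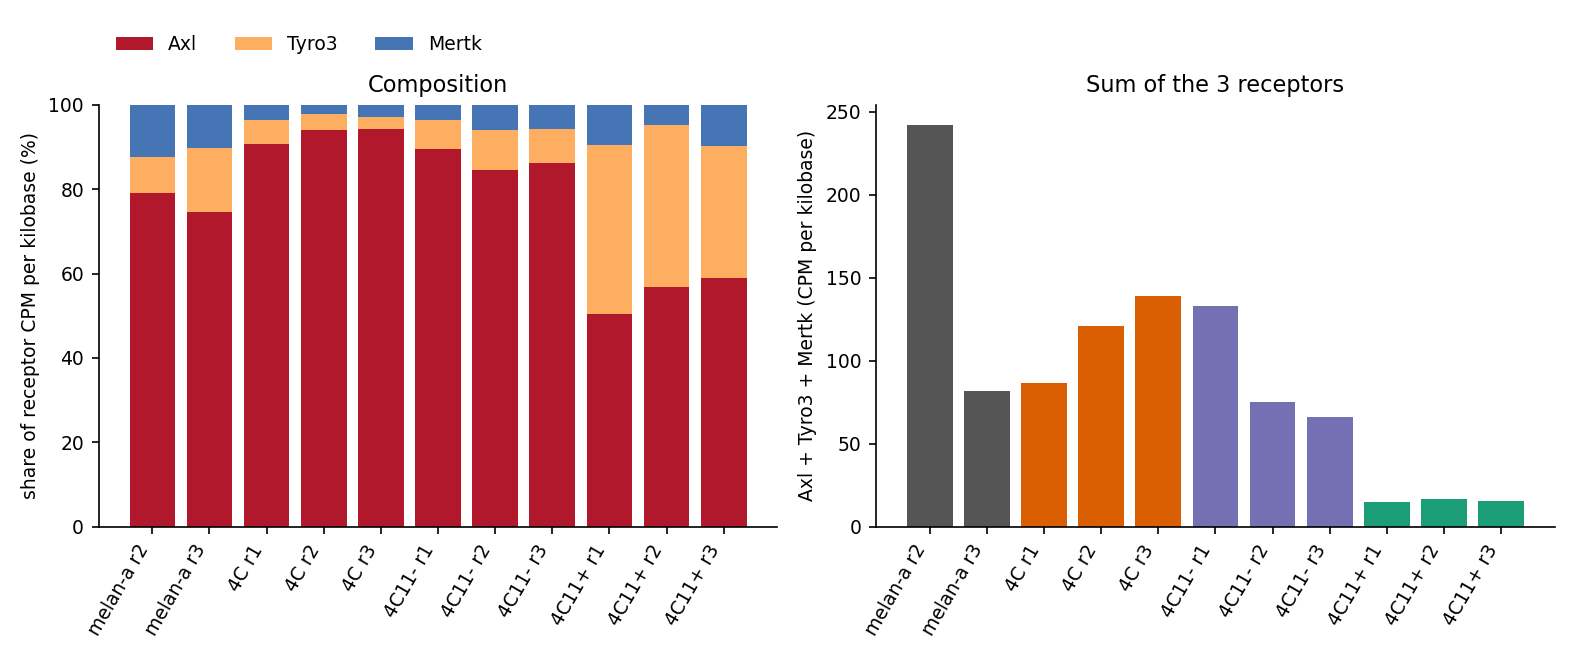
Share of Axl, Tyro3 and Mertk in the receptor CPM per kilobase of merged exons (left, stacked bars, %) and the sum of the 3 receptors (right, CPM per kilobase) in each of the 11 libraries. The Tyro3 share is 31.3 to 40.1% in 4C11+ and at most 15.3% elsewhere, while the sum is at most 16.8 in 4C11+.

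The balance of the ligands went to opposite ends in the lines 4C11- and 4C11+. Gas6 was 81.1 and 85.0% of the ligand CPM per kilobase in melan-a and 96.1, 91.5 and 91.3% in 4C. In 4C11-, with Pros1 at 0 reads, Gas6 exceeded Pros1 at least 1550-fold per kilobase. In 4C11+, with Gas6 set at 3 reads per library, Pros1 exceeded Gas6 at least 40.8-fold per kilobase. Gas6 was thus the more abundant ligand RNA in melan-a, 4C and 4C11-, and Pros1 in 4C11+. No test was made of these ratios, since the libraries that chose Pros1 enter them.

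The genes next to each lost ligand were looked up after the data were seen, taking the nearest 2 on each side with a deposited value. Nsun3, Arl13b, 4930453N24Rik and Zfp654 flank Pros1, and each of them had RNA in 4C11-. Pros1 ends at base 62929346 of chromosome 16, whereas 4930453N24Rik starts at 64751751 and Zfp654 at 64780347, so these genes lie far from it. Their mean log2 CPM in 4C11- was 1.23 for Nsun3, 4.10 for Arl13b, 5.90 for 4930453N24Rik and 3.38 for Zfp654, against 2.86, 4.94, 6.30 and 4.89 in 4C. The differences were -1.63, -0.84, -0.40 and -1.51, and 0 of 4 passed the test (limma adjusted p = 0.133, 0.405, 0.655 and 0.338), beside 1.67% of all genes. Against melan-a, Nsun3 was lower in 4C11- by 2.46 (limma adjusted p = 0.00894, but 0.102 with the compared lines alone). In 4C11+ against 4C11-, Nsun3 rose by 3.42 (limma adjusted p = 0.000232) and 4930453N24Rik by 0.998 (limma adjusted p = 0.0359, lost under 7 of 16 alternatives, up to 0.123), while Arl13b (0.51, limma adjusted p = 0.368) and Zfp654 (1.45, limma adjusted p = 0.117, but 0.0226 without 4C11- replicate 3) did not pass. With 1 library left out, the difference of Zfp654 ranged from 0.493 to 2.144 here and from -2.205 to -0.555 in 4C11- against 4C.

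Around Gas6 lie Tmco3, Tfdp1, Rasa3 and Cdc16. In 4C11+, where Gas6 held 2 reads, their mean log2 CPM was 4.93, 6.82, 7.19 and 5.58. Against 4C11-, Cdc16 fell by 2.19 (limma adjusted p = 1.52e-05) and Tfdp1 by 1.76 (limma adjusted p = 0.00159), while Rasa3 (-0.84, limma adjusted p = 0.073, but under the threshold without replicate 3 of either line, down to 0.0255) and Tmco3 (-0.12, limma adjusted p = 0.826) did not pass. The neighbours of Axl, Tyro3 and Mertk were looked up in the same way. Of the nearest gene on each side, in 4C11+ against 4C11-, neither passed for Axl (Hnrnpul1, -0.13, limma adjusted p = 0.718, and Cyp2b27-ps, -1.66, 0.201) or for Tyro3 (Rpap1, 0.03, limma adjusted p = 0.935, and Mga, -0.97, 0.343). Cyp2b27-ps and Mga passed without 4C11- replicate 1 (limma adjusted p = 0.00991 and 0.00984). For Mertk, Anapc1 fell by 0.705 (limma adjusted p = 0.0106, but 0.0598 without 4C11+ replicate 2), and Tmem87b differed by 0.713 (limma adjusted p = 0.175). Of the second genes, BC026762 near Axl (limma adjusted p = 0.000137) and Fbln7 near Mertk (-3.21, limma adjusted p = 0.00194) fell, and Ccdc97, Itpka, Mapkbp1 and Gm14005 did not pass (limma adjusted p = 0.34, 0.954, 0.857 and 0.148). In 4C against melan-a, BC026762 (limma adjusted p = 0.000128) and Fbln7 (limma adjusted p = 3.2e-05) rose. Rpap1 fell there (-0.844, limma adjusted p = 0.0428), a call lost with the compared lines alone. The other neighbours of the receptors did not pass there, although Cyp2b27-ps (limma adjusted p = 0.056) did with the compared lines alone.

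**Figure D4:**
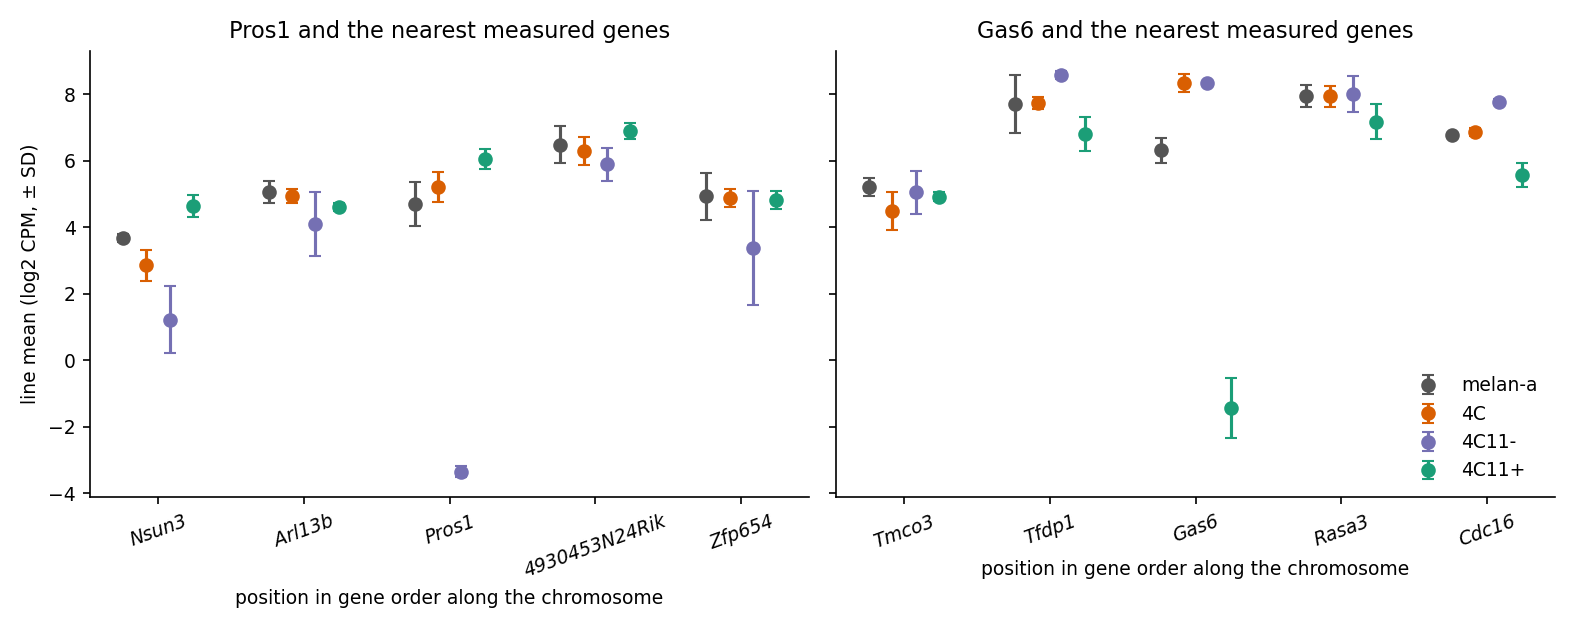
Line means (log2 CPM, ± SD) of Pros1 (left) and Gas6 (right) and of the nearest 2 genes with a value on each side, in gene order. The Pros1 mean of 4C11- is -3.34 and that of Arl13b beside it 4.10, and the Gas6 mean of 4C11+ is -1.43 and that of Rasa3 beside it 7.19.

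The genes whose pattern over the 11 libraries was most like that of a member are given as a description, with Pearson r and Spearman rho, since libraries of 1 line share their cells. For Gas6 they were Hspb8 (r = 0.993, rho = 0.918), Atp10a (0.992, 0.674), Them6 (0.992, 0.92), Sox12 (0.991, 0.802) and Ror1 (0.989, 0.82), the last 4 at 0 reads in 4C11+. For Pros1 they were Xylt1 (r = 0.961, rho = 0.597), Arhgap31 (0.928, 0.62), Slc9a9 (0.92, 0.834), 1810013L24Rik (0.919, 0.656) and Iqcg (0.916, 0.647). Since Pros1 was chosen for its loss in 4C11-, a high r with it favours genes that are low in that line. Xylt1, an enzyme that starts glycosaminoglycan chains, had a mean log2 CPM of 4.19 for 4C, -2.53 for 4C11- and 4.64 for 4C11+. It was lowest in the same line as Pros1, but its highest mean was that of melan-a (5.98).

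For Axl the most alike were the calcium channel gene Itpr3 (r = 0.987, rho = 0.955), Pdk2 (0.981, 0.966), the matrix metalloprotease gene Mmp2 (0.981, 0.918), Cd9 (0.981, 0.927) and the thrombospondin gene Thbs1 (0.98, 0.918). For Tyro3 they were Idh3b (r = 0.961, rho = 0.827), its neighbour Rpap1 (0.955, 0.836), Tmem150a (0.954, 0.918), Dnajb5 (0.949, 0.948) and Mboat2 (0.941, 0.845). For Mertk they were Camk1 (r = 0.96, rho = 0.945), Hdac4 (0.946, 0.936), Shf (0.94, 0.836), Anxa4 (0.93, 0.764) and Map4k2 (0.93, 0.882). Between members, r over the 11 libraries was highest for Axl and Gas6 (0.926), followed by Axl and Mertk (0.782), Tyro3 and Mertk (0.728) and Mertk and Gas6 (0.606). The lowest was that of Gas6 and Pros1 (-0.525), which uses the libraries that chose Pros1.

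Genes that make, modify or compete with the ligands were taken from lists by role, and their called counts stand beside the shares of all genes given above for the same comparisons. Of 3 other proposed ligands, Lgals3, the gene of galectin-3, had a value, and it fell in 4C11+ with Gas6. Its log2 CPM was 8.85 and 8.71 for melan-a, 6.89, 7.62 and 7.73 for 4C, 7.47, 6.38 and 4.80 for 4C11- and -2.44, -0.70 and -1.16 for 4C11+ (0, 1 and 1 reads). The 4C11+ libraries lay below all others without overlap (against 4C11-, limma adjusted p = 2.92e-06).

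All 7 genes of gamma-carboxylation and the vitamin K cycle, the steps that make both ligands active, had a value. In 4C against melan-a 1 was called higher and 1 lower, with a median log2 difference of -0.40 against -0.06 over all genes. In 4C11- against 4C limma called 0, and 1 had an unadjusted p under 0.05, a threshold for which no share of all genes is given. In 4C11+ against 4C11- 0 were higher and 1 lower, with a median of -0.08 against 0.12 over all genes. Nqo1, a quinone reductase that can reduce vitamin K, rose by 5.25 in 4C (limma adjusted p = 1.05e-05) and fell by 1.83 in 4C11+ against 4C11- (limma adjusted p = 0.00609). Ggcx, the carboxylase itself, fell by 1.58 in 4C (limma adjusted p = 0.00689, but 0.0643 without melan-a replicate 2, the highest over the alternatives), and was present in all lines with means of 4.66 to 6.23. The means of Vkorc1l1 ran from 5.22 to 5.92 and those of Aifm2 from 3.65 to 4.70.

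Of 12 other proteins with the same vitamin K-dependent domain, 2 had a value. Mgp, matrix Gla protein, was at 5.23 and -2.58 in the melan-a replicates 2 and 3, at 6.87 to 7.40 for 4C, at 5.02 to 6.80 for 4C11- and at 0, 0 and 1 reads for 4C11+ (against 4C11-, limma adjusted p = 0.00122). Prrg2 had means of 2.48 to 2.79. Protein S is also a cofactor of the anticoagulant protein C, and 4 of 8 genes read of that and the tissue factor pathway had a value. In 4C11+ against 4C11- 1 of them was called higher and 1 lower. Tfpi, the inhibitor of tissue factor, rose by 3.45 (limma adjusted p = 0.000149), and F5 fell (limma adjusted p = 8.37e-06). F5, coagulation factor V, was at 6.65 to 8.28 for 4C and 4.98 to 6.58 for 4C11-, at 0 reads for 4C11+ and at 0.87 and -2.58 for melan-a. Procr, the protein C receptor, had its highest mean in 4C11+ (4.53 ± 0.37), and F3, tissue factor itself, had means of 3.8 to 5.1.

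Around the receptors, Adam10 and Adam17 encode proteases that shed receptor ectodomains. Adam10 rose by 1.48 in 4C11+ against 4C11- (limma adjusted p = 0.0118), and Adam17 had means of 5.98 to 6.59. Of 9 genes that move phosphatidylserine across the membrane, 7 had a value, and in 4C11+ against melan-a 1 was called higher and 0 lower, with a median log2 difference of -0.46 against 0.03 over all genes. In 4C11+ against 4C11- 2 were higher and 0 lower, with a median of -0.39. The flippase gene Atp8a1 was at 0 reads in all 3 libraries of 4C, lower than in melan-a (limma adjusted p = 0.000451), 4C11- (0.000988) and 4C11+ (5.77e-06). Its rise in 4C11+ against 4C11- (1.74, limma adjusted p = 0.0437) was lost under 9 of 15 alternatives, up to 0.126, and that of the scramblase gene Plscr1 (1.14, limma adjusted p = 0.00905) without 4C11+ replicate 1 (0.0517). Plscr1 rose by 1.65 in 4C11+ against melan-a (limma adjusted p = 0.00483). Ano6 had means of 7.13 to 7.80 and Atp11a of 6.91 to 7.77.

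Of 12 other receptors and bridging proteins for phosphatidylserine, 6 had a value. In 4C11+ against 4C11- 2 were called higher and 1 lower. Megf10, an engulfment receptor, was at 7.80 and 5.90 for melan-a, at 0.08 to 3.50 for 4C, at -0.70 to 0.48 for 4C11- and at 6.11 to 6.82 for 4C11+, so the epithelial lines were high and the mesenchymal-like lines low. It rose by 6.36 in 4C11+ against 4C11- (limma adjusted p = 7.02e-05), as did the integrin gene Itgb3 (2.89, limma adjusted p = 0.00214), and Lrp1 fell by 2.52 (limma adjusted p = 0.00657). Itgb5 was highest in 4C (8.33 ± 0.28) and lowest in 4C11+ (6.73 ± 0.27).

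Among adaptors and effectors of the receptors, 26 of 29 genes had a value. In 4C against melan-a 2 were called higher and 2 lower. In 4C11- against 4C limma called 0. There 8 had an unadjusted p under 0.05, which is not read as a result, since no share of all genes at that threshold is given. In 4C11+ against 4C11- 7 were higher and 5 lower (15.6 and 15.4% of all genes), with a median of -0.13 against 0.12 over all genes. Akt1 rose by 1.81 in 4C11+ against 4C11- (limma adjusted p = 3.35e-05), and Plcg1, a phospholipase, fell by 1.99 (limma adjusted p = 4.08e-05). Within phosphoinositide 3-kinase, the catalytic Pik3cb fell by 2.27 in 4C against melan-a (limma adjusted p = 0.000542) and rose by 2.48 in 4C11+ against 4C11- (limma adjusted p = 6.85e-05), where the regulatory Pik3r2 fell by 1.41 (limma adjusted p = 0.00284). These calls passed under every alternative. Pik3r2 was also called lower in 4C against melan-a (-1.24, limma adjusted p = 0.0194), and the subunit genes Pik3ca and Pik3r1 passed in neither comparison.

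Of 17 genes of the Axl-high, Mitf-low melanoma state without Axl itself, 15 had a value. In 4C against melan-a 5 were called higher and 1, Tead4, lower, with a median log2 difference of 1.55. Of the 5, Pdgfrb differed by 4.635 (limma adjusted p = 0.0221), from 1.63 without melan-a replicate 3 to 7.64 without replicate 2, and lost its call under 3 of 16 alternatives (limma adjusted p up to 0.098). In 4C11- against 4C 0 were higher and 2, Nt5e and Wnt5a, lower. In 4C11+ against 4C11- 1, Ngfr, was higher and 11 were lower, with a median of -2.72 against 0.12 over all genes. With every library value below that of 3 reads raised to it, the median of the list was -2.12. Egfr was at 0 reads in melan-a, at 4.03 to 5.13 in the mesenchymal-like lines and at 0, 0 and 1 reads in 4C11+. Zeb1, a repressor of epithelial genes, had means of 1.48 for melan-a, 5.26 for 4C and 4.84 for 4C11- and was at 0 reads for 4C11+. Nt5e had means of 0.07, 6.70, 4.37 and -0.42 in the same order, and Sox9 of -0.28, 4.25, 4.95 and 1.36. Mitf itself had means of 7.85, 0.20, -0.09 and 7.12 in that order, so melan-a held Mitf RNA together with an Axl mean of 9.09. In 4C against melan-a, where 5 of the list were higher, Axl did not pass (log2 difference -0.04, limma adjusted p = 0.974). In 4C11+ against 4C11- Axl fell, and the 11 of 15 called lower stand beside 15.4% of all genes. Of these 11, Pdgfrb was close to the threshold (limma adjusted p = 0.0459) and was lost without any 1 library of 4C, 4C11- or 4C11+, with adjusted p up to 0.127 over the alternatives.

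**Figure D5:**
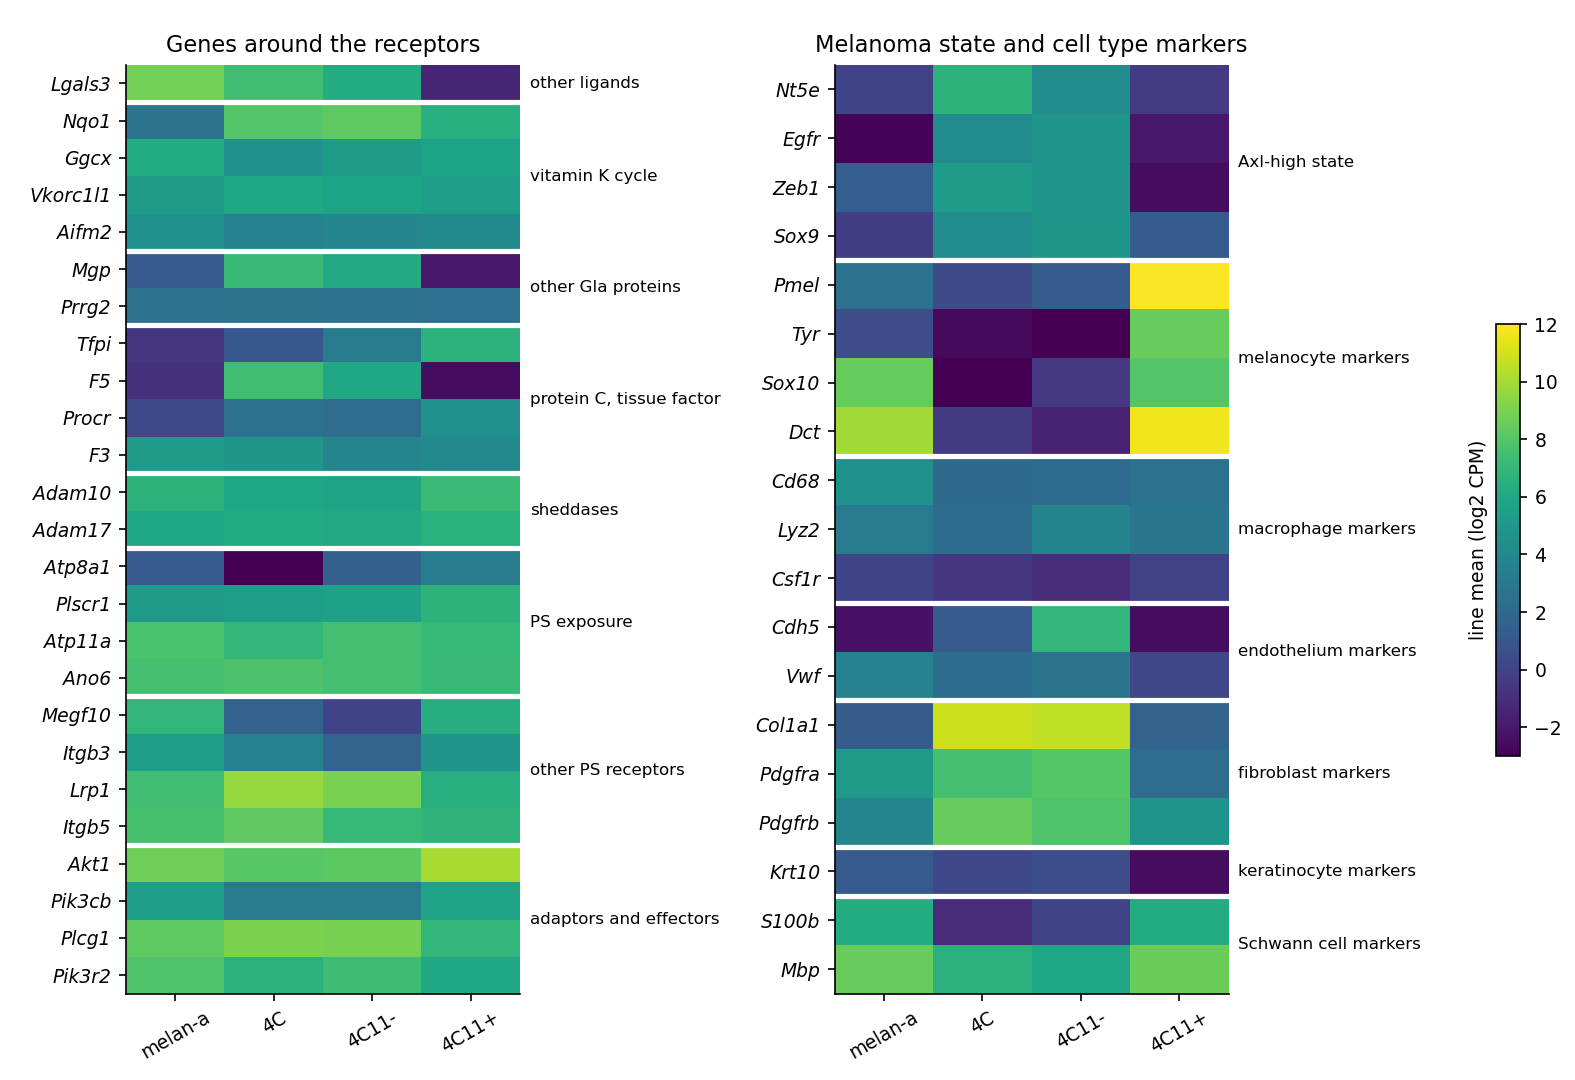
Line means (log2 CPM, color) of the named genes around the receptors (left) and of the melanoma state and cell type markers (right) in melan-a, 4C, 4C11- and 4C11+. Egfr and Zeb1 are high in 4C and 4C11- and Pmel (11.91) and Dct (11.70) in 4C11+.

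Cell type markers were read beside these results. All 8 melanocyte markers had a value, and their summed CPM was 1840 and 9110 for melan-a, 7.46, 3.76 and 6.75 for 4C, 12.5, 5.69 and 4.08 for 4C11- and 13600, 11300 and 12500 for 4C11+. Melan-a and 4C11+ thus held melanocyte RNA, while in 4C and 4C11- the highest marker of the list reached a log2 CPM of 2.54. Sox10 led in melan-a replicate 2 (9.05), Tyrp1 in replicate 3 (12.63) and Pmel or Dct in 4C11+, and Tyr was at 0.52 in the mean of melan-a and at 8.52 in that of 4C11+. All 8 markers were called lower in 4C against melan-a and all 8 higher in 4C11+ against 4C11-. The first call of Pmel (limma adjusted p = 0.0178) was lost without melan-a replicate 3 or 4C replicate 2, with adjusted p up to 0.0998 over the alternatives.

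Macrophages express Mertk, Axl and Gas6, and 3 of 8 macrophage markers had a value, Cd68, Lyz2 and Csf1r. Ptprc, Adgre1, Itgam, Aif1 and Tyrobp had none, which does not show that they were absent from every library. The sum of the 3 was 96.8 and 12.7 CPM for melan-a, 8.18, 7.64 and 20.4 for 4C, 44.7, 10.7 and 15.2 for 4C11- and 20.2, 15.7 and 9.11 for 4C11+, with Cd68 or Lyz2 as the most abundant gene. It was highest in melan-a replicate 2 (Cd68 at 6.35) and then in 4C11- replicate 1 (Lyz2 at 5.21), the libraries with the highest Axl of their lines. The part of these cells in the result was not tested.

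Of 6 fibroblast markers, 3 had a value, with sums of 205 and 19.6 CPM for melan-a, 2240, 2510 and 2580 for 4C, 2180, 1930 and 1970 for 4C11- and 41.7, 44.4 and 25.4 for 4C11+. Col1a1 was the most abundant for 4C and 4C11-, Pdgfrb led for melan-a replicate 2 and 4C11+ and Pdgfra for melan-a replicate 3, and Col1a2, Dcn and Lum had no value. The 3 with a value were called higher in 4C against melan-a and lower in 4C11+ against 4C11-, the directions of most calls of the Axl-high list, which shares Pdgfrb with this one. The first call of Pdgfra (log2 difference 2.39, limma adjusted p = 0.0111) was lost with the compared lines alone (0.0628) or without melan-a replicate 3 (log2 difference 1.16). Of 6 endothelial markers, 2 had a value, with 30.1 and 5.25 CPM for melan-a, 21.2, 3.38 and 10.3 for 4C, 124, 178 and 95.8 for 4C11- and 1.36, 1.36 and 0.849 for 4C11+. Cdh5 was the more abundant in 4C11-, at 6.54 to 7.43, and in 4C replicate 1, with Vwf in the others, and Pecam1, Tek, Kdr and Emcn had no value.

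Both Schwann cell markers read, Mbp and S100b, had a value, with sums of 850 and 246 CPM for melan-a, 89.2, 95.5 and 123 for 4C, 81.4, 63.5 and 43.4 for 4C11- and 381, 440 and 643 for 4C11+. Mbp was the more abundant throughout, and S100b was called higher in 4C11+ than in 4C11- (limma adjusted p = 9.02e-05), as was Mbp. Of 4 keratinocyte markers, Krt10 alone had a value, at most 1.48 and at 0 reads in 4C11+. The part of the fibroblast, endothelial, Schwann cell and keratinocyte markers in the results on the receptors and ligands was not tested.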

How the data were processed

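Stranded total RNA libraries of 4 mouse lines were used (11 libraries). According to their methods, the authors trimmed reads with Trimmomatic, aligned them with STAR to GRCm38, counted them with Rsubread and applied voom from limma. The authors deposited log2 CPM values, and all libraries share a highest value of 13.69, as after quantile normalization. They were used as they are. Of 14272 genes, 14136 had at least 1 CPM in at least 4 libraries, all 5 members among them, and 24 had no symbol. Depth was read from the step at 40 reads, taking the values as plain CPM.

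A limma 3.58.1 model (R 4.3.3) over 11 libraries, with line means and a mean-variance trend, was fitted and tested on simulated data. Its tests were two-sided, adjusted by Benjamini-Hochberg, in 7 comparisons, at an adjusted p under 0.05. Other steps used Python 3.11.15, NumPy 2.4.6, pandas 2.3.3 and Matplotlib 3.10.9. Lengths and coordinates come from GENCODE for GRCm38. The members and the 16 lists were chosen with earlier results of these data known, and 3 planned genes of the lists are not reported here. From each list, up to 4 genes with the largest F statistic over the lines are named, and for each member the 5 genes with a mean log2 value of at least 1 and the highest Pearson r. Other genes named in counts and neighbours were chosen after their values were seen. The labels describe triplicate cultures, and libraries that share a number across lines were not paired. No replicate 1 of melan-a was analysed here. The alternatives were a further quantile normalization, no trend, a mean log2 value of at least 1, a replicate block, the compared lines alone, Spearman correlations, coding length, and each library left out in turn.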

Additional observations from a re-analysis of the deposited data

How the results depend on the processing

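Apart from the fits without 1 library, 134 of 136 recomputed member differences, Pros1 aside, kept their direction and side of the threshold, and 2 no longer passed. With the compared lines alone, fewer libraries set the spread, and limma no longer passed Tyro3 (log2 difference -1.21) and Mertk (-1.87) in 4C11- against melan-a. Pros1, not called in 4C11+ against melan-a, was above the threshold there (1.35) and with the replicate block (1.44), and the cause was not tested. The replicate numbers need not pair libraries, since deviations of same-numbered libraries correlated at -0.226 to 0.388 and the own number correlated best in 14 of 30 cases. The counts of called genes in 4C11- against 4C (238) were 125 with fewer genes tested (mean log2 value of at least 1) and 143 with the compared lines alone, which also gave 843 in place of 1940 for 4C11- against melan-a and 1446 in place of 2270 for 4C11+ against melan-a. The other 30 of 34 counts were within 1.5 times.

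Leaving out 1 library at a time gave 93 (without 4C replicate 2) to 320 genes in 4C11- against 4C, with 113 without 4C replicate 3, 97 without 4C11- replicate 2 and 155 without 4C11+ replicate 1. It gave 1089 (without 4C11+ replicate 1) to 2864 genes in 4C11+ against melan-a, with 1145 without 4C11+ replicate 2 and 1185 without melan-a replicate 2. Of 308 member differences, Pros1 aside, 287 kept direction and side, 15 lost their call and 6 changed sign, and the cause was not tested. The log2 differences against melan-a ranged from -0.86 to 0.79 for Axl in 4C (0.18 without 4C replicate 1), from -1.34 to 0.31 for Axl in 4C11-, from -1.57 to -0.84 for Tyro3 in 4C11- and from -1.86 to -1.13 for Tyro3 in 4C11+. Mertk ranged from -3.20 to -1.34 in 4C and from -2.80 to -0.94 in 4C11-, Gas6 from 1.76 to 2.29 in 4C and in 4C11-, and Pros1 from 0.89 to 1.82 in 4C11+. In 4C11+ against melan-a, Axl ranged from -4.46 to -2.81 and Mertk from -4.64 to -2.79. Mertk in 4C11+ against 4C ranged from -1.61 to -1.15, and Gas6 in 4C11- against 4C from -0.089 to 0.152 (0.02 without 4C11- replicate 3). Between phenotypes, Tyro3 ranged from -0.98 to -0.61 and Mertk from -0.68 to 0.25. Where melan-a was left with 1 library, that library was assumed to vary like the others.

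Of 153 called differences of 44 other named genes, 122 were called under every alternative. With 1 library left out, all 275 values of r changed by at most 0.1, and 11 of 25 changed by more with Spearman correlations. Per coding length, 5 of 14 shares moved. A protein length was not run, and the fit of compared lines alone was not run between phenotypes. At these depths, values at 3 reads or fewer set no upper size for a difference.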
